A study of Mus musculus with 12 samples.

Results

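Transfer RNAs (tRNAs) are short, folded RNAs that read the codons of an mRNA in the ribosome and deliver the matching amino acid. Those of nuclear genes are made by RNA polymerase III, trimmed at both ends, heavily modified and carried into and out of each translating ribosome, and a nuclear tRNA gene is usually present in many near-identical copies. Mammalian genomes also hold large numbers of old, tRNA-derived repeat copies that no longer encode a working tRNA. The counts described here cover all genomic repeat copies of the class tRNA. They held 4758 copies under 60 names, of 5138235 repeat copies under 1554 names in the whole table. Of the 4758 copies, 1577 had at least 1 count in at least 1 of 12 libraries, and copies of the same name were summed into a tRNA group. The names give an amino acid and the codon read (Lys-AAA, Trp-TGG), where Y stands for C or T, and a final _ marks a separate repeat family of the same codon. SeC(e) is selenocysteine, the amino acid placed at certain TGA codons. The suffix (m) is not explained in the table, and groups with it were not matched to nuclear tRNA genes.

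The libraries came from whole testes of C57BL/6 mice at postnatal day 16, an age at which the first wave of spermatocytes is in meiosis. The mice were *Mael*+/- or *Mael*-/-, that is, with 1 working copy or none of the gene for Maelstrom, a protein of the piRNA pathway that represses transposons in germ cells. For each genotype, 3 testis extracts gave an RNA library (total RNA depleted of ribosomal RNA) and a footprint library (RNA pieces left with ribosomes after micrococcal nuclease) from aliquots of the same extract. Per the paper's methods, footprint pieces were purified within a short length range. Their libraries were made by another protocol than the RNA libraries, which came from a total RNA kit. All testes were treated with cycloheximide, which halts ribosomes. All libraries were made from whole tissue, in which fewer cells of a type and less RNA per cell cannot be told apart.

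The 6 RNA libraries held 13697267 to 27462358 gene counts and the 6 footprint libraries 7609932 to 13233565. Levels are given as CPM, counts for every 1000000 gene counts after scaling. *Mael* itself was at 140.3 to 209.6 CPM in *Mael*+/- RNA and at most 0.0964 CPM in *Mael*-/- RNA, and at 87.4 to 140.4 against at most 0.856 CPM in footprints. All libraries thus matched their genotype labels, which does not check replicate numbers. Summed CPM of 5 spermatocyte markers was 967 to 2229 in *Mael*+/- RNA and 975 to 1325 in *Mael*-/- RNA, and *Mael*+/- replicate 1 was the highest in RNA and in footprints. In RNA of the same genotypes, the 5 Sertoli cell markers summed to 1031 to 1165 and 1082 to 1130, the 5 spermatogonial markers to 588 to 678 and 595 to 624, and the 5 Leydig cell markers to 297 to 506 and 248 to 496. The 4 round spermatid markers stayed below 1 CPM in sum in all 12 libraries. The part of cell composition in the results below was not tested.

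The most counted groups are easier to follow with the tRNAs in view. Each line gives a group with RefSeq genes, and the form printed is the commonest among RefSeq tRNA genes with the matching anticodon in the mouse genome GRCm38. Capitals mark the anticodon, which pairs with the codon in the group's name. The first 6 were among the 8 most abundant groups in footprints, and Pro-CCY was the group called between genotypes.

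Thr-ACY_: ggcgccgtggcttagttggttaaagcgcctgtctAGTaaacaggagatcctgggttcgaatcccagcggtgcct
Arg-AGG: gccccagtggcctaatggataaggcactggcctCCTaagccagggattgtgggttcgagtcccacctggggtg
Lys-AAA: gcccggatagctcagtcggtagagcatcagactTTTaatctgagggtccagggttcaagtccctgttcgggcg
Asp-GAY: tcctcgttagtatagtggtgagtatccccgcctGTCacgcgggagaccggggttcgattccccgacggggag
Asn-AAC: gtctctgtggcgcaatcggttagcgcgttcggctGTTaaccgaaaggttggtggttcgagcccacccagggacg
Lys-AAG: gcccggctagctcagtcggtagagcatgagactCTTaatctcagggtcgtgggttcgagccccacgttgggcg
Pro-CCY: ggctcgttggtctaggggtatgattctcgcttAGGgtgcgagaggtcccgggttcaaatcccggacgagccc

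The Thr form lies at chr7:35234770-35234843 on the minus strand and is shared by 3 of 9 genes with its anticodon. The Arg form lies at chr11:115413304-115413376 on the minus strand, shared by 2 of 5, and the Lys-AAA form at chr1:133033962-133034034 on the plus strand, shared by 6 of 10. The Asp and Asn forms lie close together on the minus strand of chromosome 1, at chr1:171037029-171037100 (13 of 16 genes) and chr1:171033942-171034015 (9 of 13 genes). The Lys-AAG form is at chr3:96428235-96428307 on the plus strand (7 of 16 genes), and the Pro form at chr1:165641634-165641705 on the plus strand (6 of 6 genes). All of these are intergenic in GENCODE vM21. The forms for the lysine codons AAA and AAG have the same length of 73 bases and differ at 12 positions.

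The deposited table gives no coordinates for repeat copies, so a counted copy cannot be tied to one of these genes. Each of the 7 printed forms is shared by 2 or more genes. By that choice, none can hold a stretch of 31 bases, about the length of a footprint, that occurs once in the genome. Of 403 nuclear RefSeq tRNA genes, 257 hold no such stretch, and 325 are intergenic. How reads with several best positions were shared among copies of these libraries is not given in the sources used here. The methods name a tool for this step, Telescope, only for the RNA-seq libraries of the study's immunoprecipitation experiments. The split of counts among copies, and among groups that read the same codon, is uncertain for this reason.

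The first comparison asked how far tRNA was represented in footprint libraries against RNA from the same extract. tRNA copies took 20.7 to 26.0% of all repeat counts in the 6 footprint libraries, and 0.0817 to 0.110% in the 6 RNA libraries. In *Mael*+/- replicates 1 to 3 the class total was 102, 65.7 and 84.4 CPM in RNA and 34794, 30299 and 32566 CPM in footprints. In *Mael*-/- replicates it was 106, 96.5 and 102 CPM in RNA and 37604, 34665 and 35284 CPM in footprints. Every footprint library lay above every RNA library by more than 2 orders of magnitude on this scale, and the assays did not overlap. Within an extract, the footprint total was 341, 461 and 386 times the RNA total in *Mael*+/- testes, and 355, 359 and 345 times in *Mael*-/- testes. The mean log2 ratio was 8.54 ± 0.16 (SD, n = 6 extracts), a 372-fold difference (exact sign-flip permutation test, two-sided, p = 0.03125, the smallest that 6 extracts can give). The assays also differ in size selection and library preparation, and the part of these in the ratio was not tested.

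Both scales rest on gene counts, which the authors took over whole mRNAs in RNA and over coding sequence alone in footprints, so a CPM has a smaller base in footprints. When the total of all repeat counts was the base instead, the log2 ratio was 7.91, or lower by 0.63, and in the same direction. That base holds the tRNA counts themselves, which were 20.7 to 26.0% of it in footprints and 0.0817 to 0.110% in RNA.

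**Figure D1:**
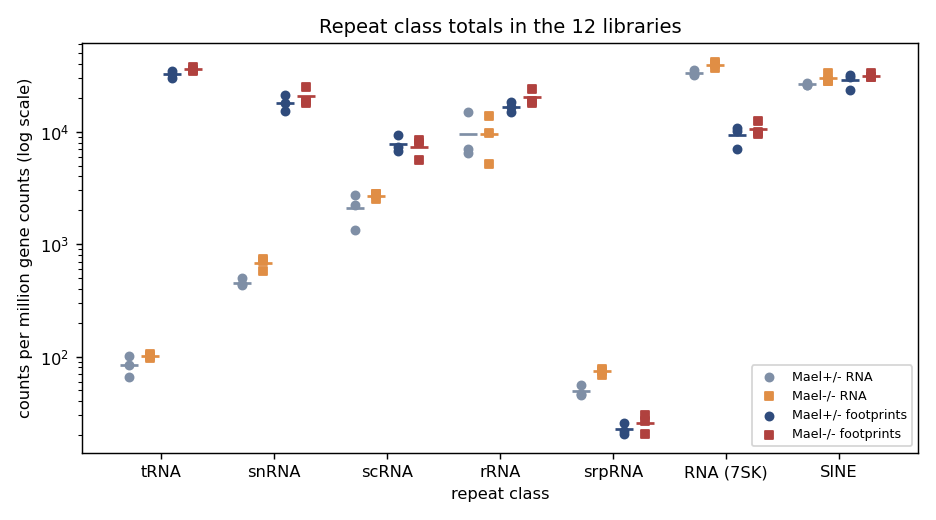
Total counts of 7 repeat classes in each library, as CPM on a log axis; points are libraries, bars are means of 3 replicates, and colours are genotype and assay. The tRNA totals of the 6 footprint libraries sit between 30299 and 37604, all above the 6 RNA libraries, which lie between 65.7 and 106.

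Other classes of small structured RNA differed between the assays in both directions. Copies of small nuclear RNA (snRNA), the RNA of the splicing machinery, were 34.7-fold higher in footprints, and small cytoplasmic RNA (scRNA) was 3.20-fold higher. Copies of ribosomal RNA (rRNA), reads of which were removed by different means in both assays, were 2.07-fold higher. Copies of the signal recognition particle RNA (srpRNA) were at 0.396 times their RNA level in footprints and the class named RNA, which holds 7SK, at 0.272 times. SINE copies, short interspersed repeats many of which descend from tRNA or 7SL RNA, were at 1.07 times their RNA level, which did not pass the test (exact sign-flip test, p = 0.3125, n = 6 extracts). The log2 ratio of tRNA exceeded that of each of these 6 classes in all 6 extracts, by 3.42 ± 0.43 (SD) for snRNA and by 8.44 ± 0.23 for SINE (exact sign-flip test of each difference, adjusted p = 0.03125 over 6 comparisons).

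The footprint level was carried by few groups. The 8 most abundant took 74.5% of all tRNA footprint counts, and Thr-ACY_, a threonine tRNA group of 15 copies, took 36.5% alone. In *Mael*+/- footprints it held 13606, 10852 and 10742 CPM, and in *Mael*-/- footprints 13960, 14120 and 11380 CPM. Its RNA libraries held 2, 3 and 1 counts in *Mael*+/- and 0, 6 and 2 in *Mael*-/-. The same group was thus first of 60 in footprints and 49th in RNA. Pooled over replicates, its footprint level was 155061 times its RNA level in *Mael*+/- testes (95% Clopper-Pearson interval 71240 to 422533) and 105367 times in *Mael*-/- testes (53474 to 244060). Intervals of this kind cover counting error only.

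Arg-AGG, an arginine group of 18 copies, was second, with 4684, 4352 and 5951 CPM in *Mael*+/- footprints and 6471, 4779 and 4967 CPM in *Mael*-/- footprints. Its RNA counts were 10, 4 and 8 in *Mael*+/- and 2, 9 and 15 in *Mael*-/- libraries, and the log2 difference of footprints against RNA was 14.09 (SE 0.38) and 13.69 (SE 0.37) in the quasi-likelihood fit. The selenocysteine group, SeC(e)-TGA, came next. The tRNA for selenocysteine is charged with serine first and serves a small set of selenoproteins. Its footprints held 1870.4, 2021 and 1526 CPM in *Mael*+/- and 2126, 2190.2 and 2653 CPM in *Mael*-/- testes, so that all *Mael*-/- libraries lay above all *Mael*+/- libraries. In footprints this was so for 5.26% of the tRNA groups tested and for 11.8% of all repeat names. The log2 difference of SeC(e)-TGA between the assays was 13.07 (SE 0.31) and 12.35 (SE 0.30), and 1 of its 3 copies held all 117723 of its footprint counts.

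Lys-AAA footprints held 1699, 1162 and 1473 CPM in *Mael*+/- and 1844, 1929 and 1913 CPM in *Mael*-/- libraries, again without overlap (the shares just given apply here too). Lys-AAG, the group for the other lysine codon, held 655, 642 and 628 against 715, 490.4 and 617 CPM, and the genotypes overlapped. Asp-GAY was the steadiest abundant group, at 1404, 1254 and 1388 against 1412, 1308 and 1413 CPM. Its coefficient of variation over the 6 footprint libraries was 4.86%, the lowest of the 54 groups with a mean of at least 100 footprint counts, whose median was 18.05%. Leu-TTA(m), a leucine group of 2 copies, held 1220.2, 1010.3 and 996 against 985, 1288 and 1605 CPM.

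Asn-AAC, an asparagine group, stood apart for its spread. Its footprints held 884, 349.9 and 943 CPM in *Mael*+/- and 1753, 472 and 453 CPM in *Mael*-/- libraries. *Mael*-/- replicate 1 was 5.01 times *Mael*+/- replicate 2, the widest range of the 54 groups, and the coefficient of variation was 64.6%. As counted, the range sat in 1 copy, which took 85.6% of the group's footprints and held 755, 224 and 819 against 1645, 349 and 287 CPM, while the next copy held 28.9, 33.1 and 36.6 against 36.7, 36.5 and 40.5 CPM. Only 6 of the 54 groups varied over 2-fold between their highest and lowest footprint library, and the median range was 1.62-fold.

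**Figure D2:**
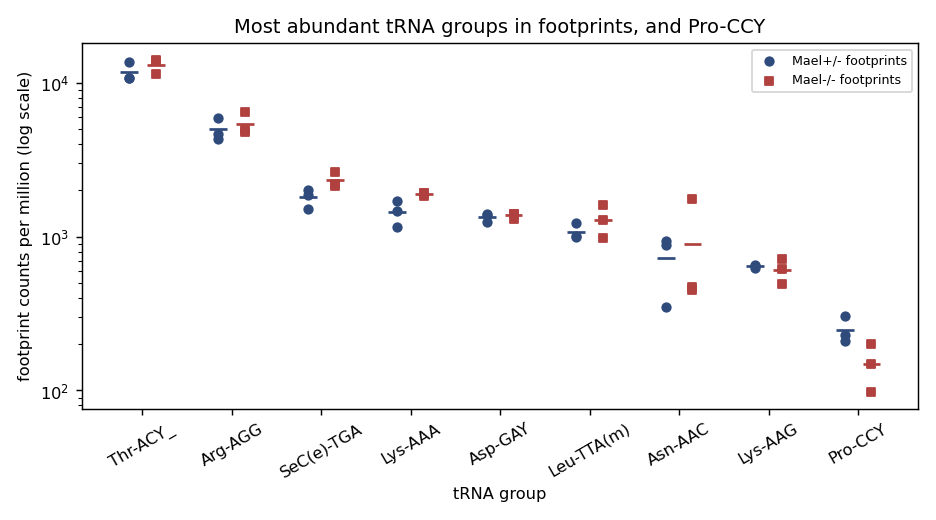
Footprint CPM (log axis) of the 8 most abundant tRNA groups and of Pro-CCY in each of 3 *Mael*+/- (circles) and 3 *Mael*-/- (squares) libraries; bars are means. Thr-ACY_ lies above all other groups in all 6 libraries, Asn-AAC spreads over a 5.01-fold range, and the 3 *Mael*-/- libraries of Pro-CCY lie below the 3 *Mael*+/- libraries.

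RNA libraries ranked the groups differently. Ala-GCY_, an alanine group of 2576 copies, came first with 16.9, 13.9 and 15.8 CPM in *Mael*+/- and 19.7, 15.3 and 16.3 CPM in *Mael*-/- RNA. Leu-TTA(m) followed with 24.4, 4.80 and 14.1 against 14.5, 11.7 and 10.4 CPM, and was the only group among the first 8 of both assays. Its *Mael*+/- RNA replicate 1 was the highest library and replicate 2 the lowest, a difference of 588 against 134 counts within one genotype. Ala-GCA (749 copies) held 7.01 to 9.33 CPM over the 6 RNA libraries, Ser-TCY 3.98 to 8.07, Ser-TCG 2.86 to 6.26, Tyr-TAC 4.12 to 6.48, Ser-AGY 1.68 to 3.85 and Leu-TTG 1.70 to 3.56. Alanine groups together took 30.3% of tRNA counts in RNA and 3.61% in footprints. RefSeq held 13 nuclear genes matching Ala-GCY_ and Ala-GCY, which had 2588 copies together, and 11 matching the 749 copies of Ala-GCA. The alanine sums therefore cover far more repeat copies than known tRNA genes. Over all groups, the number of copies had a Spearman correlation of 0.46 with the mean RNA level and 0.34 with the mean footprint level. Threonine groups took 1.02% in RNA and 37.3% in footprints, and arginine groups 2.68% and 18.4%. Across the 47 groups with at least 20 counts in each assay, mean levels in RNA and footprints had a Spearman correlation of 0.36. Groups share libraries and are not independent, so this is a description. The footprint order itself was close between genotypes, with a Spearman correlation of 0.99 over 60 groups.

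Footprints against RNA were tested in 1 fit over all 12 libraries and 1146 repeat names. Of the 60 tRNA groups, 57 passed the filter on low counts, and the other 3, His-CAY, Tyr-TAT and Ser-TCA(m), had at most 4 counts in all libraries together. All 57 were called higher in footprints in *Mael*+/- testes and all 57 in *Mael*-/- testes (edgeR, adjusted p under 0.05). Over all repeat names tested, 44.3% were called higher in *Mael*+/- and 47.0% in *Mael*-/- testes. Groups could pass the filter through their footprints alone. The 38 that also passed it in RNA libraries alone were all called higher in both genotypes, with a median log2 difference of 7.57 in *Mael*+/- and 7.26 in *Mael*-/- testes. The median over the 57 was 7.96 and 7.52, against 0.52 and 0.58 over all repeat names. With pooled counts and groups without RNA counts held at their lower bound, the median was 7.86 and 7.43. In each of the 57 groups the footprint CPM exceeded the RNA CPM in all 6 extracts.

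The range among groups was wide. Leu-CTA had no count in the 3 *Mael*+/- RNA libraries, and its footprints, at 184, 170.3 and 167 CPM, were at least 4576-fold higher, taking 3 counts over the group as the limit. In *Mael*-/- RNA it had 2 counts, which gave a ratio of 5546 (95% interval 1534 to 45804). Thr-ACG, a second threonine group, had 3 counts in *Mael*+/- RNA and a ratio of 4982 (1704 to 24166), and 8 counts in *Mael*-/- RNA and a ratio of 1902 (965 to 4406). At the other end stood Ser-TCY, with 12.7, 13.0 and 11.2 CPM in *Mael*+/- and 10.6, 10.1 and 15.2 CPM in *Mael*-/- footprints. Its log2 difference was 1.45 (SE 0.21, adjusted p = 2.61e-06) in *Mael*+/- and 0.74 (SE 0.20, adjusted p = 0.00404) in *Mael*-/- testes. The latter was 0.16 (adjusted p = 0.473) when scaled by all repeat counts and 0.53 (adjusted p = 0.0591) without *Mael*-/- footprint replicate 3. Glu-GAA, a glutamate group named here after its values were seen, had the next lowest log2 differences in both genotypes, 1.83 (SE 0.37) and 1.36 (SE 0.38). Ala-GCY_ differed by 4.28 (SE 0.20) and 4.02 (SE 0.20).

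**Figure D3:**
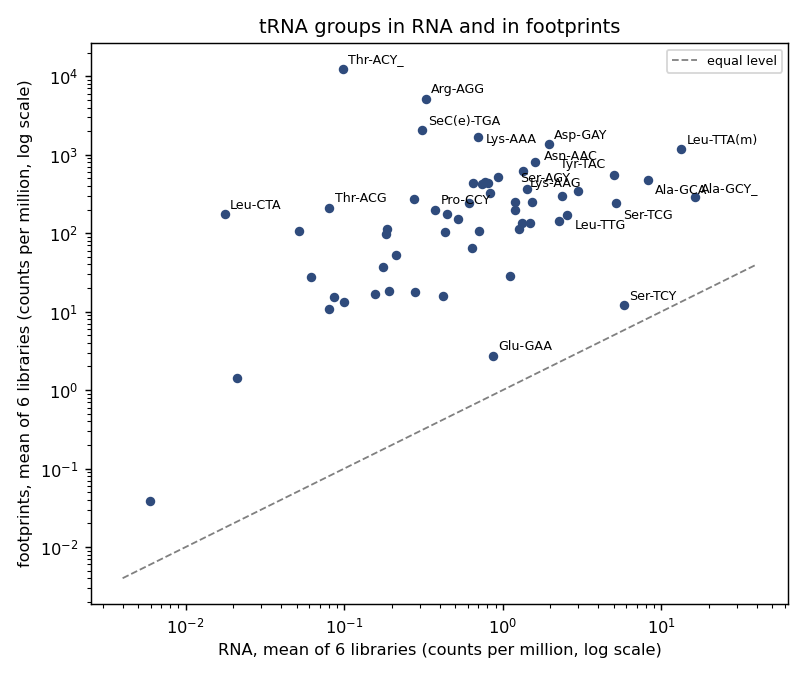
Mean level of each tRNA group with counts in both assays over 6 RNA libraries (x) and 6 footprint libraries (y), in CPM on log axes; the dashed line marks equal levels. All points lie above the line; Ser-TCY and Glu-GAA are nearest to it and Thr-ACY_ farthest.

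Single copies showed how the assays divided the same names. Of the 1577 copies with counts, 725 had counts in footprints only, 247 in RNA only and 605 in both. The 10 most counted copies took 67.3% of 1977374 footprint counts and 36.2% of 12981 RNA counts, and 90% of the counts lay in 48 copies in footprints and in 283 in RNA. The 50 most counted copies of each assay shared 6. In 57 groups with counts in both assays, the leading copy was the same in 18. Of the 60 groups, 47 had over 50% of their footprints in 1 copy.

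The leading Thr-ACY_ copy held 423787 footprint counts, 21.4% of the class, with 74996, 45446 and 62717 in *Mael*+/- and 105383, 82242 and 53003 in *Mael*-/- libraries, against 4 RNA counts in all. The second had 213195 footprint counts and no RNA count. A pair of Arg-AGG copies followed the same pattern, with 188166 and 85538 footprint counts against 6 and 2 RNA counts, and so did the leading copies of Lys-AAA (81624 against 1) and Asp-GAY (72629 against 7). The leading Leu-TTA(m) copy was the exception among the 8 most counted, with 66939 footprint and 1847 RNA counts, and was also first in RNA.

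Among the 106 copies with at least 20 RNA counts, 52 had a footprint CPM over 10 times their RNA CPM, 24 lay between 1 and 10 times, and 30 were lower in footprints than in RNA. Of those 30, 14 were Ala-GCY_ copies, 9 Ala-GCA and 3 Ser-TCY. Within Ser-TCY, the copy with most RNA held 507 RNA counts and 31 footprint counts, while another copy held 455 footprint counts and 7 RNA counts. An Ala-GCA copy had 204 RNA counts and 0 footprint counts, which allows up to 3 counts in the 6 footprint libraries. The footprints of the alanine groups lay elsewhere, with 71.0% of Ala-GCY_ and 75.3% of Ala-GCA in a single copy each, and not in the copy that led in RNA.

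**Figure D4:**
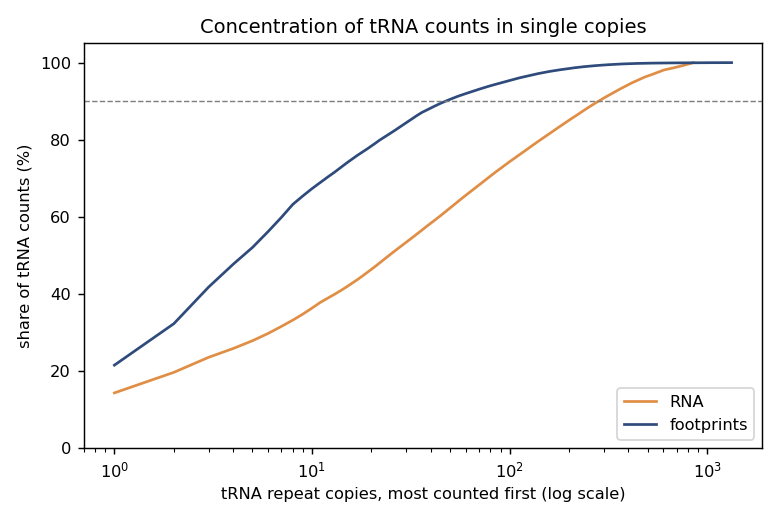
Cumulative share of tRNA counts (%) over repeat copies ordered from the most counted, on a log axis, summed over 6 RNA (orange) and 6 footprint (blue) libraries; the dashed line marks 90%. Footprints reach the line with 48 copies and RNA with 283.

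Footprint levels were also set beside the reference genes. Groups with the suffix (m) were set aside in this match. For 56 of 60 groups, RefSeq held nuclear tRNA genes of the matching anticodon, which formed 45 sets once groups of the same anticodon were joined. Over these sets, the summed footprint level had a Spearman correlation of 0.34 with the number of RefSeq genes and 0.18 with the share of 31-base windows that occur once in the genome. Both are descriptions over sets that share libraries. Thr-ACY_ and Thr-ACY read the same codons and match the same 9 genes, and held means of 12443 and 15.98 footprint CPM.

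The next comparison asked whether tRNA levels differed between genotypes. The class total in RNA was 84.1 ± 18.3 CPM in *Mael*+/- and 102 ± 4.74 CPM in *Mael*-/- testes (SD, n = 3 each), 1.23-fold higher (exact permutation test, two-sided, p = 0.2, where 3 against 3 cannot go below 0.1). In footprints it was 32553 ± 2247 and 35851 ± 1549 CPM, 1.10-fold higher (p = 0.2, exact permutation test). Neither difference passed the test. The sum of all repeats was itself higher in *Mael*-/- testes, by a log2 difference of 0.19 in RNA and of 0.14 in footprints. Relative to that sum, the tRNA total differed by 0.10 and 0.0036 on the same scale.

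Of 38 groups tested in RNA, 0 were called in edgeR, against 0.898% of 1114 repeat names, and 9 had an unadjusted p under 0.05, or 23.7% against 5.57% of all repeat names. DESeq2 also called 0, while a fit with a replicate block called Leu-TTG, Asp-GAY and Ser-TCY (see the last section). The estimates leaned one way: 34 of 38 were above 0, with a median log2 difference of 0.39, where the median over all repeat names was 0.09. Scaled by all repeat counts, 27 of 36 were above 0. In 12 of the 38 (31.6%), all *Mael*-/- libraries lay above all *Mael*+/- libraries, which was so for 9.87% of all repeat names, and in 0 they lay below (1.71% of all names).

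Leu-TTG, a leucine group, had the smallest p, with 1.70, 1.75 and 1.99 CPM in *Mael*+/- and 3.30, 3.56 and 3.04 CPM in *Mael*-/- RNA. The 2 genotypes did not overlap, and the log2 difference was 0.85 (SE 0.23, edgeR adjusted p = 0.118). Asp-GAY held 1.54, 1.47 and 1.07 against 2.18, 2.84 and 2.62 CPM, also without overlap, with a difference of 0.91 (SE 0.26, adjusted p = 0.173). Ser-TCY held 5.40, 3.98 and 4.13 against 7.37, 5.93 and 8.07 CPM (0.66, SE 0.23, adjusted p = 0.344). The corresponding footprint differences were 0.12 (SE 0.18), 0.03 (SE 0.20) and -0.05 (SE 0.21), and none passed the test. RNA counts per library behind these values ran from 29 to 74 for Asp-GAY and from 41 to 86 for Leu-TTG.

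In footprints, 1 of 57 groups was called, against 1.82% of 1045 repeat names. Pro-CCY, a proline group of 27 copies, held 211, 230.1 and 304 CPM in *Mael*+/- and 148, 200.5 and 97.8 CPM in *Mael*-/- footprints. All *Mael*-/- libraries were lower, with *Mael*-/- replicate 3 the lowest, and the log2 difference was -0.74 (SE 0.19, edgeR adjusted p = 0.00475). The footprint fit took its variance fully from that shared across all repeat names. An SE or p from it therefore does not measure the replicate spread of a single group. Asn-AAC, with the widest spread, had an SE of 0.19, and Asp-GAY, the steadiest, 0.20. In RNA Pro-CCY had 3, 5 and 13 counts against 6, 12 and 13. DESeq2 gave an adjusted p of 0.109 for the footprint difference, and scaling by all repeat counts gave -0.91 with an edgeR adjusted p of 0.296. The call was also lost without *Mael*+/- footprint replicate 3 (-0.57, adjusted p = 0.644), without *Mael*-/- footprint replicate 1 (-0.74, adjusted p = 0.0804) and without *Mael*-/- footprint replicate 3 (-0.51, adjusted p = 0.586).

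As counted, the difference lay in 1 copy, which took 79.3% of the group's footprints and had no RNA count. It held 172, 190.4 and 258 CPM in *Mael*+/- and 114, 165 and 45.4 CPM in *Mael*-/- footprints. The second copy held 27.1, 31.7 and 34.7 against 25.5, 27.7 and 41.1 CPM, and the genotypes overlapped. Without the leading copy of each group, the Pro-CCY difference was -0.04 (adjusted p = 0.938). The other 56 groups included 3 with all *Mael*-/- libraries above all *Mael*+/- libraries (Lys-AAA, Met and SeC(e)-TGA, 5.26% of those tested against 11.8% of all repeat names) and 1 with all below (Ser-TCA_). With Pro-CCY, the latter were 3.51% of those tested, against 1.72% of all repeat names. Over the 57, 38 estimates were above 0, with a median of 0.10 against 0.13 for all repeat names. Scaled by all repeat counts, 18 were above 0, so that the balance of direction depended on the scaling. *Mael*-/- replicate 3 was the highest footprint library in 27 of the 54 groups with a mean of at least 100 counts, and without it 23 of 57 estimates were above 0.

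**Figure D5:**
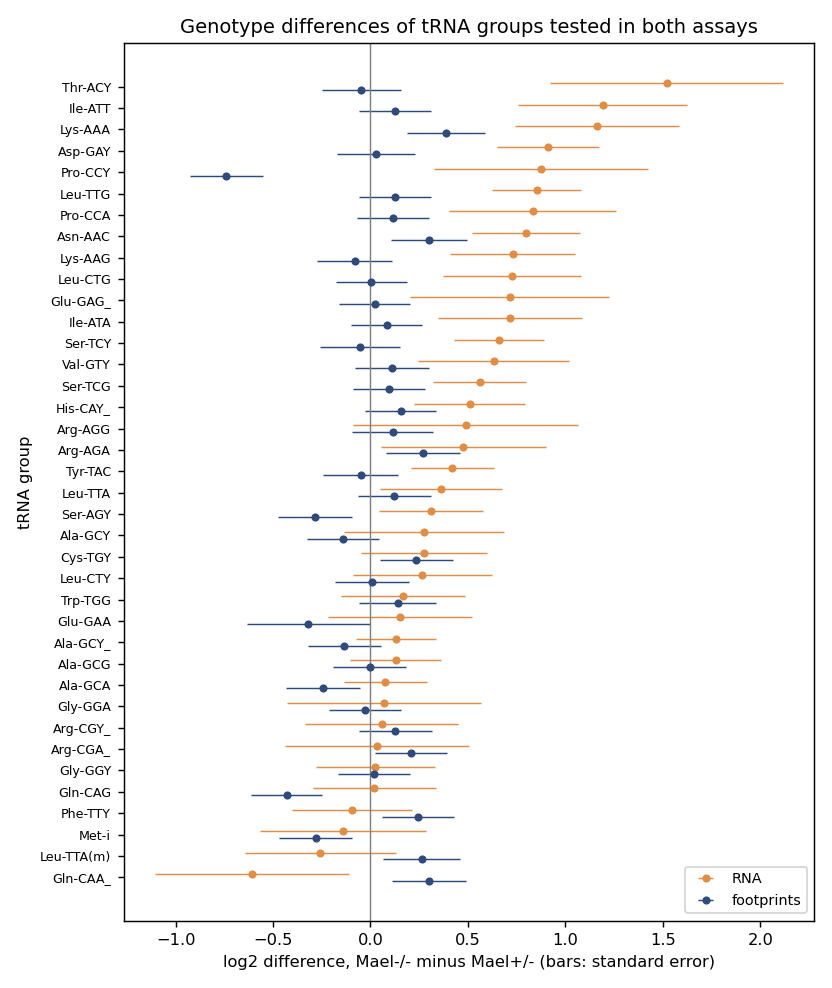
Log2 difference of *Mael*-/- minus *Mael*+/- testes for the 38 tRNA groups tested in both assays, in RNA (orange) and footprints (blue), with bars of 1 standard error derived from the F statistic of the edgeR test. Footprint bars rest on a variance shared across all repeat names, not on the replicates of each group. In RNA 34 of 38 points lie right of 0, none called, and in footprints Pro-CCY, at -0.74, is the point farthest to the left.

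Whether footprints shifted with genotype by more than RNA did was tested as an interaction term in the fit of 12 libraries. Of 57 tRNA groups, 0 were called in edgeR, as were 0% of 1146 repeat names, and 10 had an unadjusted p under 0.05, or 17.5% against 3.23% of all repeat names. DESeq2 called 0 as well. Estimates were below 0 in 45 groups, with a median of -0.42 against 0.03 over all repeat names. Of these 57 groups, 19 did not pass the filter in RNA libraries alone, and in the other 38 the estimate was below 0 in 32, with a median of -0.44. The estimate is the footprint difference minus the RNA difference of the same libraries. The lean of the RNA differences above 0 therefore enters it, and the lean below 0 is not a second, independent result. Among named groups the lowest p belonged to Asp-GAY, at -0.89 (SE 0.27, adjusted p = 0.742), and Pro-CCY was at -1.61 (SE 0.56, adjusted p = 0.742). For the class total, the footprint to RNA log2 ratio was 8.62 in *Mael*+/- and 8.46 in *Mael*-/- extracts, a difference of -0.15 (exact permutation test, p = 0.4, n = 3 each). Single copies gave no call between genotypes either. In RNA 0 of 43 tRNA copies tested were called, against 1.61% of 16710 repeat copies, and in footprints 0 of 364, against 0.817% of 5511, with 5 and 11 at an unadjusted p under 0.05. These were 11.6% of the tRNA copies tested in RNA, against 9.01% of all copies, and 3.02% in footprints, against 5.33%.

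Genes that make, process, modify or clear tRNA were compared between genotypes as the other side of the pathway. Of 24 genes for RNA polymerase III and its factors, 0 were called in RNA or footprints, with median log2 differences of -0.03 in both assays, against -0.01 over all genes, of which 0.116% were called in RNA and 0.0593% in footprints. *Polr3k*, a polymerase III subunit, differed by 0.15 (SE 0.09) in RNA, and *Gtf3a*, the factor TFIIIA for 5S rRNA genes, by -0.23 (SE 0.11) in footprints. The 24 genes of end maturation, splicing and export also had 0 calls, with *Tsen34*, a subunit of the tRNA splicing endonuclease, at 0.13 (SE 0.10) in RNA, and *Elac2*, the nuclease that trims the 3′ end, at 0.15 (SE 0.10) in footprints. Of 35 genes of base modification, 0 were called, and *Dus1l*, a dihydrouridine synthase, was at -0.23 (SE 0.11) in RNA and *Ctu2*, which acts in thiolation of the wobble base, at -0.22 (SE 0.11) in footprints. Of 9 genes for nucleases and their inhibitors that cut or clear tRNA, 7 passed the filter and 0 were called, with *Dicer1* at -0.16 (SE 0.08) in RNA and *Rnh1*, a ribonuclease inhibitor, at 0.13 (SE 0.12) in footprints. Across the 4 lists 0 genes in RNA and 0 in footprints had an unadjusted p under 0.05, by edgeR, the only tool run on these lists.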

How the data were processed

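Testis RNA and ribosome footprints were compared in 12 libraries, 3 for each of 4 groups, mapped to groups by GEO's labels. Per the paper's methods, the authors clipped footprint reads, removed ribosomal DNA reads with Bowtie 1.2.2, aligned to mm10 with STAR 2.6.0c and counted with featureCounts of Subread 1.6.4. The authors deposited raw counts per gene and per repeat copy, without normalization. How repeats and multiply mapping reads were counted in these libraries, and whether duplicates were collapsed, is not given in the sources used here; Telescope is named for repeat reads of the study's immunoprecipitation experiments only. The 3 deposited result tables of the authors' DESeq2 1.24.0 analyses hold fold changes and p-values and were not used. Depth is given with the results and sets the precision of each value.

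Repeat copies of class tRNA were summed by name. Levels are CPM, counts for every 1000000 gene counts scaled by TMM factors over all 12 libraries; copy lengths are not in the table, so CPM is not per length. Tests were edgeR 4.0.16 quasi-likelihood F-tests in R 4.3.3, with gene totals and TMM factors within the libraries of each fit, the default filter on low counts, Benjamini-Hochberg adjustment over all repeat names, copies or genes, and a threshold of 0.05. An SE is the size of the log2 difference divided by the square root of the F statistic of the edgeR test. DESeq2 1.42.0 and other scalings, filters, left-out libraries and replicate blocks were alternatives. RNA and footprints of one extract are paired by the labels: over 14374 genes, deviations from the group mean correlated at 0.71, 0.54 and 0.56 in *Mael*+/- and 0.20, 0.18 and 0.16 in *Mael*-/- extracts. Scripts were tested on simulated data.

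Named groups are the 8 most abundant in each assay, those called between genotypes, and the 5 with the largest called footprint excess in *Mael*+/- testes and a mean of at least 20 counts; single copies are the 8 most counted; genes are those with the smallest p of each list. Others are named for a count or a contrast seen in the values. Members and lists were chosen with earlier results of these data known. RefSeq tRNA genes of GRCm38 were matched by amino acid and anticodon. Some tRNA sequences are not reported here.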

Additional observations from a re-analysis of the deposited data

How the results depend on the processing

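The planned restriction to copies of 65 to 95 bases was not run, because the table gives no copy lengths. The number of tRNA groups called in footprints between genotypes, 1, was 0 with DESeq2, 0 when scaled by all repeat counts and 0 without the top copy of each group, and ranged from 0 to 3 with 1 library left out. Without *Mael*+/- footprint replicate 1, Gln-CAG and Ser-TCA_ were called beside Pro-CCY. The cause was not tested, and the share of all repeat names called in that fit is not given here. Samples of both genotypes share only a replicate number: same-numbered deviations correlated at 0.17, -0.008 and 0.11 in RNA and 0.07, 0.16 and 0.03 in footprints. With a replicate block, 3 groups were called in RNA in place of 0: Leu-TTG (0.85, adjusted p = 0.00644), Asp-GAY (0.93, adjusted p = 0.00941) and Ser-TCY (0.67, adjusted p = 0.0253). The share of all repeat names called with the block is not given here either, so whether these calls stand out cannot be told. In footprints the block left 1 call, and a block by extract changed no call count of the interaction (0) or of footprints against RNA (57 in each genotype). Leaving out 1 library gave 0 calls in RNA, 57 in *Mael*+/- and 55 to 57 in *Mael*-/- for footprints against RNA, and 0 in the interaction. With 1 extract left out, the log2 ratio of the tRNA total was 8.48 to 8.57, and the smallest p that 5 extracts allow is 0.0625, so no p there could pass. Leaving out 1 library, the genotype difference of the total was 0.13 to 0.45 in RNA and 0.09 to 0.19 in footprints. Of the alternatives for the 5 counts of called groups and the 3 class totals, 91 kept their direction and stayed within 1.5 times or on the same side of the threshold, and the other 14 are those given above: 8 counts moved by more than 1.5 times and 6 totals kept the direction but no longer passed. For the genotype totals the side of the threshold was fixed beforehand, as the exact permutation test of 3 against 3 cannot go below 0.1. The RNA depth limits the ratios: Thr-ACY_ had 14 counts in all 6 RNA libraries.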
